A study of Mus musculus with 2 samples.

Results

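The 10 genes described here are Hdac1, Hdac2, Hdac3, Hdac4, Hdac5, Hdac6, Hdac7, Hdac9, Hdac10 and Sirt1, which encode members of the histone deacetylase family. They were chosen by name and matched to GENCODE M21 gene names, and all 10 were found among the 55536 genes of the table. The study sequenced polyadenylated RNA from regulatory T cells with a past exposure to inflammation. The cells came from a male mouse of 6 months, strain Foxp3CreERT2 x Rosa26YFP, and were labelled as primary cells of bone marrow hematopoietic origin. In such mice the inducible Cre is made under the control of Foxp3, the gene of the factor that defines regulatory T cells, and the Rosa26 YFP allele reports Cre activity. How inflammation was induced, and when Cre was activated, are not given in the sources used here. There was 1 group with 1 biological replicate, measured in 2 technical libraries, called replicate 1 and replicate 2 below. No comparison of conditions could be made, and every spread and test below compares libraries of the same cells.

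Histone deacetylases remove acetyl groups from lysines in histone tails and in many other proteins. Class I enzymes (Hdac1, Hdac2, Hdac3) are nuclear and work inside corepressor complexes. Class IIa enzymes (Hdac4, Hdac5, Hdac7, Hdac9) bind MEF2 transcription factors, shuttle out of the nucleus when kinases create docking sites for 14-3-3 proteins, and have little catalytic activity of their own. Class IIb holds Hdac6, a cytoplasmic deacetylase of tubulin, and Hdac10, a polyamine deacetylase. Sirt1 belongs to class III and consumes NAD instead of using a zinc ion. In regulatory T cells this family is known for acting on Foxp3, whose stability depends on its acetylation.

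The depth behind the values was 15386113 estimated gene counts in replicate 1 and 13604480 in replicate 2. T cell markers were high, with all 6 of 6 detected at 1 TPM or more, a unit that corrects for transcript length and library size, in both libraries and a median of 954.4 TPM. All 6 of 6 regulatory T cell markers were detected as well, with a median of 300.3 TPM. Trac, Lck and Cd3g led the first list at 2998, 1228 and 1154 TPM, and Izumo1r, Tnfrsf18 and Ikzf2 led the second at 1050, 456.5 and 425.7 TPM, while Foxp3 stood at 22.05 and 17.9 TPM. Both CD8 T cell markers passed, Cd8b1 at 11.23 and Cd8a at 2.435 TPM. Another 36 markers covered B, plasma and NK cells, monocytes and macrophages, neutrophils, dendritic cells, erythroid cells and platelets, and stromal, endothelial and epithelial cells. Of these 36, 3 were detected: Jchain, Hbb-bs and Epcam. In a bulk library, fewer cells of a type and less RNA per cell cannot be told apart.

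Hdac1 had the highest deposited level and Hdac9 the lowest, and 9 of the 10 genes reached 1 TPM in both libraries. The median over the 10 genes was 17.02 TPM, with 16.58 in replicate 1 and 17.45 in replicate 2. For scale, 10288 of 22028 protein-coding genes (46.7%) passed the same threshold, and their median was 18.33 TPM. The 10 genes as a set thus sat near the middle of the expressed protein-coding genes, from Hdac9 under the threshold to Hdac1 at percentile 94.2.

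**Figure D1:**
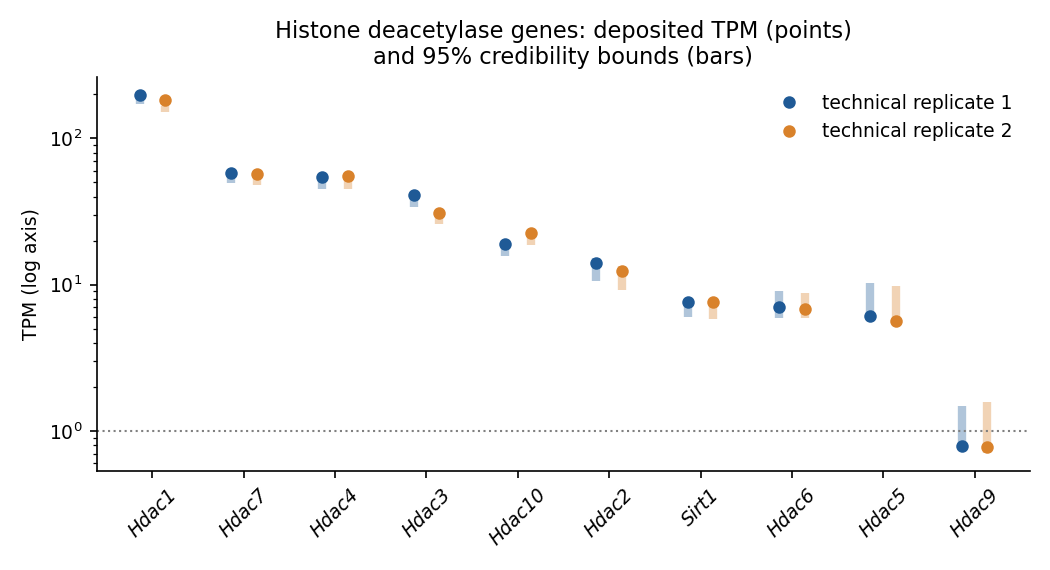
Deposited TPM of the 10 genes (vertical log axis) in technical replicates 1 and 2 (points), with the deposited 95% credibility bounds of each library (bars) and a dotted line at 1 TPM. Hdac1 lies at 198.73 and 181.57 TPM, Hdac9 at 0.79 and 0.78, and the points of Hdac1, Hdac7 and Hdac4 lie above their own bounds.

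Among class I, Hdac1 (chr4:129516104-129542713, minus strand, mm10) was listed at 198.73 TPM in replicate 1 and 181.57 TPM in replicate 2, or 190.1 ± 12.1 (SD, n = 2 technical libraries). This was 3.3 times the level of Hdac7, the next gene in the order. Hdac3, the catalytic subunit of the NCoR corepressor (chr18:37935844-37955016, minus strand), had 40.78 and 30.82 TPM (35.8 ± 7.04), the widest relative spread of the 10 genes. Hdac2, the close paralog of Hdac1 (chr10:36974544-37001889, plus strand), had 14.1 and 12.35 TPM (13.22 ± 1.24). The libraries did not overlap between any pair of these 3 genes.

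Among class IIa, Hdac7 and Hdac4 stood at nearly the same level. Hdac7 (chr15:97792664-97844502, minus strand), known for its high expression in thymocytes, had 58.0 and 57.27 TPM (57.64 ± 0.516). Hdac4 (chr1:91928779-92195699, minus strand) had 54.17 and 55.13 TPM (54.65 ± 0.679). Their order was not resolved, because the credibility bounds of the pair overlapped although the TPM values did not. Hdac5 (chr11:102194432-102230166, minus strand) was far lower at 6.11 and 5.65 TPM (5.88 ± 0.325), and Hdac9 (chr12:34047580-34917095, minus strand) had 0.79 and 0.78 TPM (0.785 ± 0.00707).

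In class IIb, Hdac10 (chr15:89123307-89128700, minus strand) had 19.06 and 22.56 TPM (20.81 ± 2.47). Hdac6 (chrX:7930120-7947889, minus strand) had 7.01 and 6.87 TPM (6.94 ± 0.099). Sirt1 (chr10:63319005-63381704, minus strand) had 7.59 and 7.6 TPM (7.595 ± 0.00707). Sirt1 against Hdac6, and Hdac6 against Hdac5, were the other neighbours in the order whose bounds overlapped. The remaining neighbours were separated in TPM and in bounds, by 1.53 times for Hdac4 over Hdac3, 1.72 times for Hdac3 over Hdac10, 1.57 times for Hdac10 over Hdac2, 1.74 times for Hdac2 over Sirt1 and 7.49 times for Hdac5 over Hdac9. The deposited bounds centre on a posterior mean and not on TPM itself, and 3 of the 10 genes (Hdac1, Hdac4, Hdac7) had a TPM above its upper bound in both libraries. A small SD here reflects only the agreement of 2 libraries from 1 cell preparation.

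Summed by class, class I carried 62.4% of the TPM of the 10 genes in replicate 1 and 59.0% in replicate 2. Class IIa carried 29.3% and 31.2%, class IIb 6.4% and 7.7%, and Sirt1 1.9% and 2.0%. Hdac1 alone made up 48.9% and 47.7%.

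The level of Hdac1 differed most between the 2 gene tables deposited for each library. The larger table holds estimated counts, in which a read that matches several transcripts is divided between them, while the smaller table holds whole-number counts on an older annotation. Hdac1 had 4422 and 3537 estimated counts but 313 and 261 counts in the smaller table, a ratio of 13.9 over both libraries. The median of this ratio over 10240 genes was 2.31, with a 5th to 95th percentile of 1.21 to 13.1, and Hdac1 stood at percentile 95.3. Hdac4 followed with a ratio of 6.4, Hdac9 with 4.93, Sirt1 with 4.61 and Hdac7 with 2.77. The other 5 genes lay below the median, from 1.95 for Hdac3 to 1.15 for Hdac5.

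Hdac1 was also the member whose sequence is most shared with other genes. Its coding transcript Hdac1-201 is 2038 nt long, and 1167 of its 1989 windows of 50 nt (58.7%) occur in another annotated gene. All of these lie in 3 processed pseudogenes, which are intronless copies of the mRNA inserted elsewhere in the genome. The closest copy is Gm10093 at chr17:78491582-78493025 on the plus strand (mm10), which shares 1121 windows and is identical at 1435 of 1444 aligned positions (99.38%). The 9 differences all fall in the coding part. Counted from 1 at the A of the start codon of Hdac1-201, with the base of Hdac1 first and that of Gm10093 last, they are G342A, C408T, T441A, A460G, C465T, C472T, T482C, T719C and C1170A. The stretch with the densest differences, coding positions 430 to 490, is shown because a short read there can tell the gene from its copy; capitals mark the 5 differing bases, and elsewhere in the copy windows of 50 nt are often identical.
Hdac1-201: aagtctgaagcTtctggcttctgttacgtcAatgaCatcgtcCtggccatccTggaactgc
Gm10093-201: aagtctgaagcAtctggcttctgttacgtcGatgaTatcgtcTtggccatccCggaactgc

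Gm10093 itself was assigned 51.52 and 47.52 TPM in the larger table, from 893 and 728 estimated counts. In the smaller table it had 15 and 13 counts. With Gm4864 (7.62 and 7.93 TPM) and AC125456.1 (7.11 and 5.09 TPM), the 3 pseudogenes held 66.25 and 60.54 TPM. The level of Hdac1 is therefore reported as uncertain: a read inside a shared window cannot be assigned to the gene or its copy from its sequence. Among the other members, Hdac4-202 shared 1.1% of its windows with the lincRNA Gm26720, Hdac5-204 shared 1.7% with the microRNA gene Mir8101 that lies inside it, and the leading coding transcripts of the other 7 shared none. The part of shared sequence in the gap between the tables was not tested; Hdac4, Hdac9 and Sirt1 had ratios of 4.61 to 6.4 with 1.1% of shared windows or fewer.

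**Figure D2:**
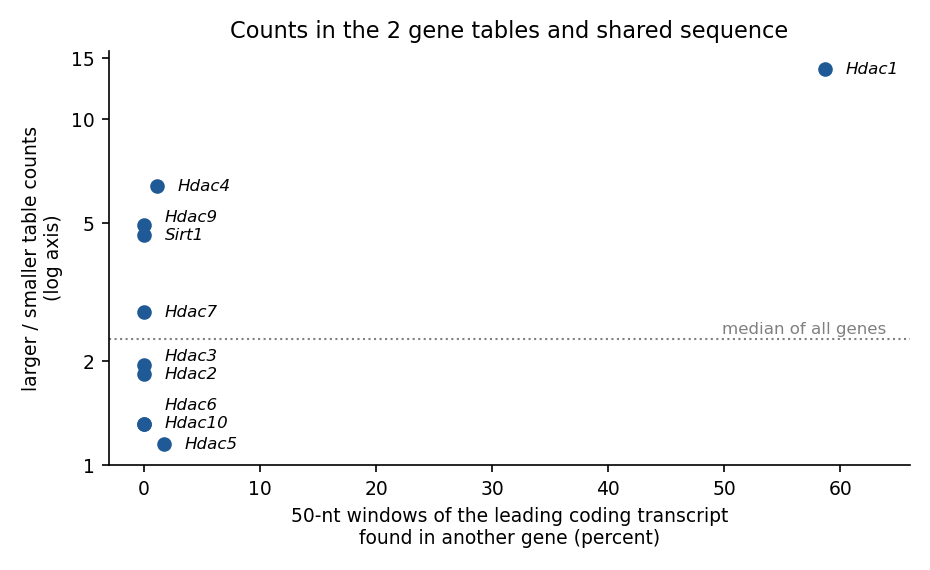
Ratio of larger-table to smaller-table counts summed over the libraries (vertical log axis) against the percent of 50-nt windows of the leading coding transcript found in another annotated gene (horizontal axis), 1 point per gene, with the median over all genes dotted at 2.31. Hdac1 stands alone at 58.7% and 13.9, while the other genes lie at 1.7% or less with ratios of 1.15 to 6.4.

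The order of the genes changed with the scale. Per kb of the leading coding transcript, the smaller table put Hdac3 first at 57.4 CPM per kb, where CPM scales counts to library size, then Hdac10 at 50.3, Hdac7 at 43.7 and Hdac1 at 41.1. Hdac2 followed at 17.1, Hdac4 at 15.5 and Hdac6 at 15.2, and Hdac5, Sirt1 and Hdac9 closed the order at 7.86, 5.07 and 0.499. On this scale Hdac1 had 42.9 and 39.2 CPM per kb in the 2 libraries, below Hdac7 with 44.3 and 43.1. These values came from 313 and 261 counts of Hdac1 and 597 and 531 counts of Hdac7. The scale has no credibility bounds, so the order of this pair was not resolved. Only Hdac9 kept the rank it has by TPM. Hdac1 made up 16.6% and 15.8% of the sum over the 10 genes. Class I carried 47.4% and 43.6%, class IIa 26.6% and 26.7%, and class IIb 24.1% and 27.6%. The per-kb values divide by transcript lengths of the newer annotation, which for Hdac4-202 is 8100 nt.

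**Figure D3:**
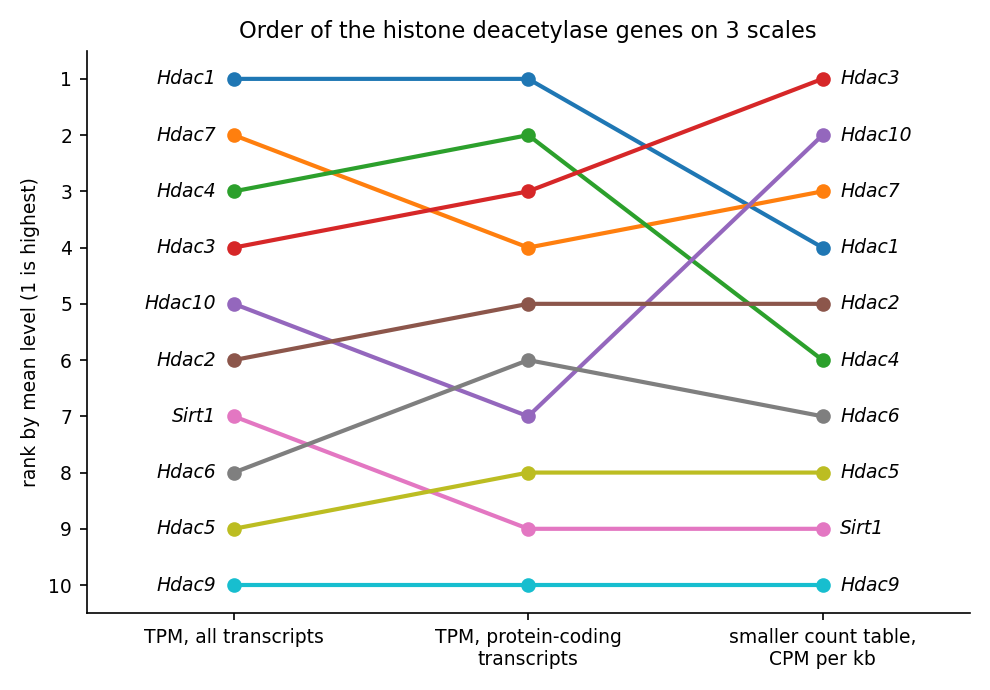
Rank of each gene by its mean over the 2 libraries (vertical axis, 1 is highest) on 3 scales: TPM of all transcripts, TPM of protein-coding transcripts, and smaller-table CPM per kb. Hdac1 goes from rank 1 on both TPM scales to rank 4, Hdac3 from rank 4 to rank 1, and Hdac9 holds rank 10 on all 3.

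Much of the TPM of several genes was assigned to transcript models that encode no full protein. The annotation puts the models into 4 classes: protein coding, retained intron, nonsense-mediated decay (an mRNA with an early stop that cells degrade) and processed transcript (no reading frame). Protein-coding transcripts held 93.7% and 81.0% of the TPM of Hdac9, 83.9% and 83.0% of that of Hdac1, 73.2% and 91.4% of that of Hdac6, and 67.6% and 72.9% of that of Hdac3. They held 32.1% and 33.0% for Hdac7, 31.0% and 15.4% for Sirt1, and 24.9% and 19.6% for Hdac10. Hdac2 (46.4% and 49.1%) and Hdac4 (52.1% and 49.8%) lay between these, while Hdac5 had 43.0% in replicate 1 and 24.6% in replicate 2. Over protein-coding transcripts only, class I carried 76.3% and 74.8% of the TPM of the 10 genes, class IIa 19.1% and 20.2%, class IIb 3.7% and 4.5% and Sirt1 0.9% and 0.5%. On that scale Hdac4 at 27.84 and Hdac3 at 25.03 TPM stood above Hdac7 at 18.77 TPM, with Hdac1 at 158.7 TPM still first.

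**Figure D4:**
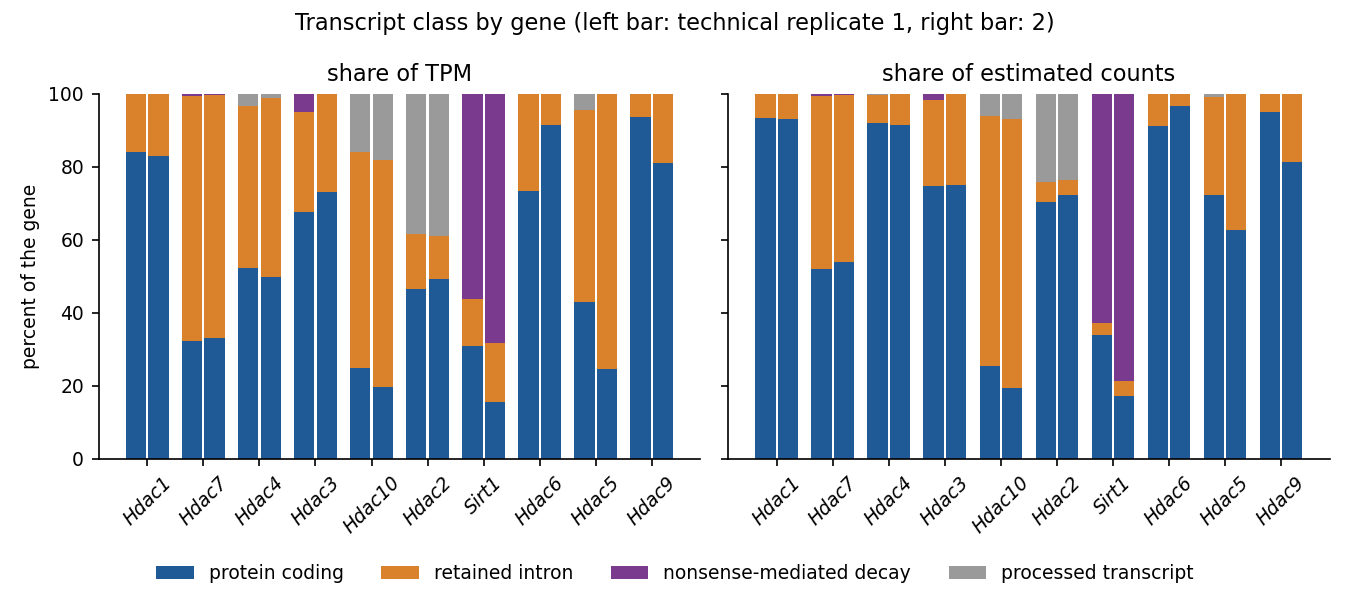
Percent of each gene (vertical axis) assigned to protein-coding, retained-intron, nonsense-mediated-decay and processed transcripts, by TPM (left panel) and by estimated counts (right panel), with replicate 1 as the left and replicate 2 as the right bar of each gene. Hdac4 is 52.1% and 49.8% protein coding by TPM but 91.9% and 91.5% by counts, while Hdac10 and Sirt1 stay under 35% on both.

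For Hdac4 the share depended on whether TPM or counts were used, because the non-coding model is short. The coding transcript Hdac4-202 (1076 codons) held 2735.7 and 2284.6 estimated counts, or 27.35 and 25.85 TPM. The retained-intron model Hdac4-210 is 589 nt long and held only 147.9 and 149.8 counts, but these made 22.05 and 25.27 TPM. Its credibility bounds, 15.8 to 23.6 and 18.2 to 26.7 TPM, overlapped those of Hdac4-202, 23.4 to 25.2 and 21.7 to 23.6. Hdac4-210 shares its exons with Hdac4-202 except for 178 nt (30.2%) at its first exon, chr1:91934687-91934864, which is intron in Hdac4-202. The junction is shown because it is what separates the models; capitals mark the 30 coding bases from chr1:91934602-91934686 (minus strand) that both contain.
Hdac4-202: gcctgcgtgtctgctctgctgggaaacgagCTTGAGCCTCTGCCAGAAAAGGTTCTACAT
Hdac4-210: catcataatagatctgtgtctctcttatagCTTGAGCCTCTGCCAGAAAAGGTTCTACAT

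For Hdac7 a non-coding model was the largest single model by TPM and by counts. The protein-coding transcripts of Hdac7 together held 51.9% and 53.9% of its counts in replicates 1 and 2. Hdac7-211, a model of 2 exons and 1572 nt at the end of the gene, held 37.91 and 37.27 TPM from 717.4 and 623.1 counts. The coding transcripts Hdac7-208 (851 codons) and Hdac7-206 (892 codons) held 9.75 and 10.12 TPM, and 8.2 and 5.29 TPM. The credibility bounds of Hdac7-211, from 29.7 to 37.2 TPM over both libraries, did not overlap those of either coding transcript. Relative to Hdac7-208, 381 nt (24.2%) of Hdac7-211 are its own, nearly all of them at chr15:97794066-97794445. At its end the gene overlaps Slc48a1, on the other strand, by 29 nt, and Slc48a1 had 25.43 and 27.47 TPM. Capitals mark the first 30 bases of the shared coding exon at chr15:97793930-97794065 (minus strand), preceded by the upstream exon in Hdac7-208 and by intron sequence kept in Hdac7-211.
Hdac7-208: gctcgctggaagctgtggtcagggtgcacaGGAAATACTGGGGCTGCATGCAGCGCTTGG
Hdac7-211: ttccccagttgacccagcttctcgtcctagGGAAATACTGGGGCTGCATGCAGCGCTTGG

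Hdac10 and Sirt1 were also led by models that are not annotated as coding. Hdac10-207, a retained-intron model, held 8.79 and 8.93 TPM against 4.36 and 3.56 for the coding Hdac10-201 (666 codons), and the bounds of this pair overlapped. Hdac10-207 differs from Hdac10-201 by 289 nt of its own, 10.9% of its length. Hdac10-205, another retained-intron model, held 1.5 and 4.08 TPM, and the processed transcript Hdac10-208 held 1.91 and 4.11 TPM.

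For Sirt1, the nonsense-mediated-decay model Sirt1-205 held 4.27 and 5.2 TPM from 181.0 and 194.5 counts. The coding Sirt1-207 (553 codons) held 2.26 and 1.17 TPM, and its bounds overlapped those of Sirt1-205. Sirt1-201, which encodes 737 codons from the same first base as Sirt1-207, was assigned 0.0 counts in both libraries, and Sirt1-203, with the same number of codons and an upstream start, 5.1 and 0.0. Sirt1-207 lacks an exon of 552 nt at chr10:63321749-63322300 that Sirt1-201 and Sirt1-205 both hold. Sirt1-205 in turn lacks 572 nt at the start of Sirt1-201 and has 125 nt of its own. Reads in the exon of 552 nt thus had to be divided between Sirt1-205 and the other models that hold it. The junction that marks the skipped exon is printed with 30 bases before it in lower case and 30 after it in capitals, the first of which begin the exon in Sirt1-205 and the following exon in Sirt1-207.
Sirt1-205: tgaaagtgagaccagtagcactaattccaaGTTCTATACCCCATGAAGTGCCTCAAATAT
Sirt1-207: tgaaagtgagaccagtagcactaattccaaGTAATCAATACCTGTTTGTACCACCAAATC

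In the remaining genes a coding transcript led or the reads were few. Hdac1-201 held 166.69 and 150.77 TPM and Hdac3-201 held 27.59 and 22.47 TPM, with the retained-intron models Hdac3-203 at 5.13 and 3.0 and Hdac3-204 at 5.15 and 3.68 TPM. Hdac6-202 held 5.13 and 6.03 TPM, and the retained-intron models Hdac6-207 and Hdac6-208 held 0.9 TPM or less each. The bounds of Hdac6-202 (1.49 to 4.75 and 1.03 to 5.31 TPM) still overlapped those of Hdac6-207, which reached 2.23 and 1.96 TPM. Hdac2-201 (488 codons) and the processed transcript Hdac2-204 were close, at 5.93 and 5.52 TPM against 5.43 and 4.83 TPM with overlapping bounds, and Hdac2-203 held 2.14 and 1.46 TPM. Hdac5, with 141 and 95 estimated counts over 20 models, had a different leader in each library: Hdac5-218 with 1.39 and 0.0 TPM, and Hdac5-211 with 1.14 and 2.48 TPM. Its coding transcripts shifted likewise, with Hdac5-202 at 0.82 and 0.01 TPM, Hdac5-204 at 0.65 and 1.17 and Hdac5-203 at 0.51 and 0.21. The models of 10% or more in either library also include Hdac5-214 (0.64 and 0.0 TPM), Hdac5-213 (0.58 and 0.88 TPM) and Hdac5-210 (0.0 and 0.62 TPM), so no isoform of Hdac5 was resolved at this depth. In all, 6 of the 10 genes had 1 transcript with at least 50% of the TPM in both libraries, and 9 had the same leader in both.

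Most of the few Hdac9 counts were assigned to its short form, at a depth that does not resolve its isoforms. Hdac9-201, with 588 codons, held 38.7 of 42 estimated counts in replicate 1 and 22.5 of 32 in replicate 2. The short form of Hdac9 is known to lack the deacetylase domain and to repress MEF2 by recruiting other deacetylases. The 5 of 10 models that code past the end of Hdac9-201 held 1.2 and 2.3 counts together. The coding model Hdac9-202 (114 codons) and the retained-intron model Hdac9-209 (3706 nt) held 0.13 and 0.15 TPM in replicate 2. The forms part inside the exon that begins at chr12:34374138 on the minus strand: Hdac9-205 leaves it after base 34373878 and codes for 492 further codons, while Hdac9-201 reads on for 16. The stretch is shown because those bases decide the form, with the last 30 shared bases in lower case and the next 30 coding bases in capitals.
Hdac9-201: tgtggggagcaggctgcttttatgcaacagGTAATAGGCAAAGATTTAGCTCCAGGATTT
Hdac9-205: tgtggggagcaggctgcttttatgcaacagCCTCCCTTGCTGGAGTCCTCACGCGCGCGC

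The start sites with reads differed in base composition. RefSeq promoter windows (GRCm38.p6) were found for 7 of the 10 genes, 11 windows in all, and each was read from 250 bases before to 30 bases after the start. The GC box GGGCGG, searched on both strands with overlaps counted, occurs in 34.7% of all 32851 windows, and the median number of CG dinucleotides in a window was 6. Hdac4 and Hdac6 held 5 GC boxes each and Sirt1 held 6, Hdac2 and Hdac5 held 1 each, and CG dinucleotides in these 5 windows ran from 16 in Hdac5 to 45 in Sirt1. The windows of Hdac9 held no GC box and 3 or 0 CG dinucleotides.

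Among the 4 Hdac7 starts with a window, the one that received most reads was poor in CG dinucleotides and 2 CG-rich starts received few. The start at chr15:97814863, that of Hdac7-208, carried 27.2% and 28.1% of the counts of the gene and its window holds 5 CG dinucleotides. The start at chr15:97831495 carried 80.3 and 146.8 counts of 1657 and 1470 and its window holds 28, with 1 GC box. The start at chr15:97831767 carried 0.8% and 4.3% with 30 CG dinucleotides, and the start at chr15:97844502 carried none. Hdac7-206, with 23.7% and 15.2% of the counts, begins at chr15:97844269, and Hdac7-211, with 43.3% and 42.4%, the most of any start of the gene, at chr15:97794445. Neither start has a window. Starts are those of the transcript models, so a count near a start is an assignment and not a mapped 5′ end. Hdac4 (91.6% and 90.8% of its counts at this start), both Hdac7 starts and the used Hdac9 start (92.0% and 70.4%) are printed 5′ to 3′ on the minus strand, as the contrast in composition is visible in them, with GC boxes in capitals.
Hdac4, chr1:92180312-92180591: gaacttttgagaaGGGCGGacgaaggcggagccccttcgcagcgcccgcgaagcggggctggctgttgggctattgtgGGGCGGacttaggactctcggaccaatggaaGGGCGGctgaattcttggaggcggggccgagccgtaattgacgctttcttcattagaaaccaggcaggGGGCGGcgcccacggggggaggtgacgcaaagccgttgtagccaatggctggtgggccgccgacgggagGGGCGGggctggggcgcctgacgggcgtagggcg
Hdac7, chr15:97814834-97815113: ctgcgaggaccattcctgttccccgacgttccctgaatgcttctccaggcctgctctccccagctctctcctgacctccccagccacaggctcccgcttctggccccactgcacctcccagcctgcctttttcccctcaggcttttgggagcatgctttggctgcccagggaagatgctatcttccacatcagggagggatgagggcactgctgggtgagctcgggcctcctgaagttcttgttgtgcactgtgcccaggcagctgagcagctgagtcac
Hdac7, chr15:97831466-97831745: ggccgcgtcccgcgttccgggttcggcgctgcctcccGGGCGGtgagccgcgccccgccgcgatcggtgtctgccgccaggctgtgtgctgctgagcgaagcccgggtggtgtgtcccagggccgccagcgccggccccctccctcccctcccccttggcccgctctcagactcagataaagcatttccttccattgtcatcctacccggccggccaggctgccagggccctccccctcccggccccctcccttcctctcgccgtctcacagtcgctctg
Hdac9, chr12:34528860-34529139: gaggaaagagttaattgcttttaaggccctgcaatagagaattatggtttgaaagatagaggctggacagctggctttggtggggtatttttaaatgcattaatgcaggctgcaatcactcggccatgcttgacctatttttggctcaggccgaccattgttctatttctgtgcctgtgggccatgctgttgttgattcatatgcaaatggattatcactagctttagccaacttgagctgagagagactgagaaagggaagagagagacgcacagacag

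Between the 2 libraries, 3 of the 10 genes were called by an exact binomial test on rounded estimated counts, with Benjamini-Hochberg adjustment over 17334 genes. Its p-values allow for counting error alone, and not for error in dividing shared reads, as between Hdac1 and its copies. Hdac1 was lower in replicate 2, with a ratio of 0.904 and an adjusted p of 0.00021, and so was Hdac3, with a ratio of 0.811 and an adjusted p of 0.00086. Hdac10 was higher, with a ratio of 1.176 and an adjusted p of 0.043. The same test called 3328 genes, or 19.2%, and 3 of 10 has to be read against that background. The test compares 2 libraries of the same cells and no condition. The call of Hdac10 was lost with DESeq2 size factors in the binomial test (adjusted p of 0.055). With a common dispersion, edgeR called none of the 10, with 0 at an unadjusted p under 0.05. That dispersion was estimated from the same 2 libraries, so it holds the differences under test and cannot decide on single genes. The largest difference that was not called was that of Hdac5, with a ratio of 0.763 and an adjusted p of 0.15 from 141 and 95 counts. In the smaller table the binomial test called 729 of 11019 genes (6.62%) and none of the 10, where 1 of the 10, Hdac3, had an unadjusted p under 0.05 (p = 0.028 by the exact test). Markers of other cells moved between the libraries too: Jchain, the joining chain of secreted antibodies, had 10.19 and 1.22 TPM, C1qb had 17 and 0 counts, and Krt18 had 16 and 1 counts. The summed plasma cell list was 12.02 and 1.98 TPM, that of monocytes and macrophages 2.84 and 1.92, and that of B cells 3.87 and 2.67, with Adgre1 at 0 in both libraries. Their part in the differences of Hdac1 and Hdac3 was not tested.

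**Figure D5:**
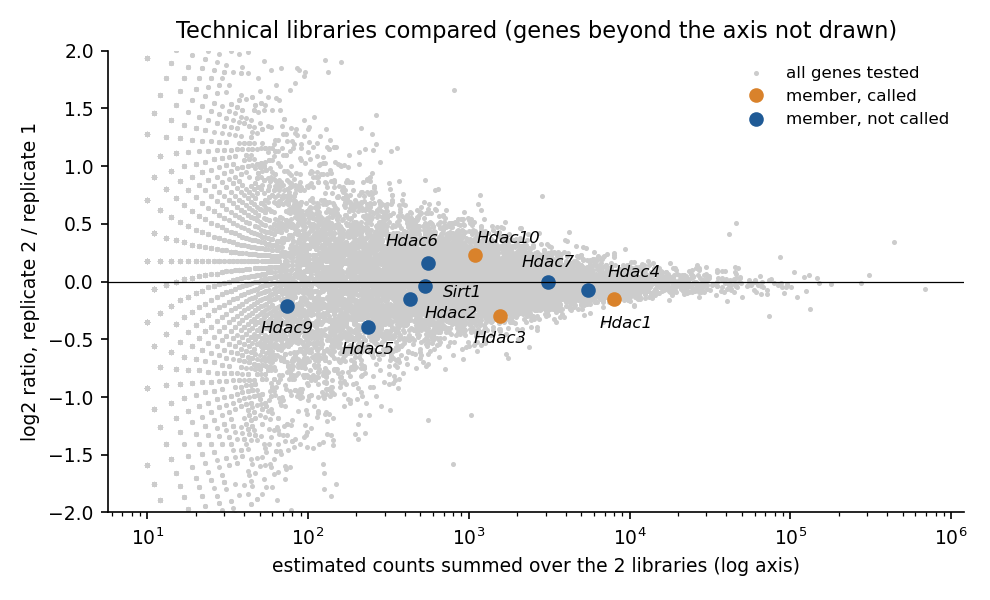
log2 ratio of replicate 2 over replicate 1 after scaling (vertical axis) against estimated counts summed over the libraries (horizontal log axis), for all genes tested (grey) and the 10 genes (coloured). The called genes Hdac1, Hdac3 and Hdac10 lie at -0.15, -0.30 and 0.23, within the grey cloud.

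Genes of the complexes and pathways around these enzymes were nearly all expressed. Of 114 distinct genes in 12 lists, 109 were detected, against 46.7% of all protein-coding genes, with a median of 27.99 TPM, and 25 of the 111 tested were called between the libraries. That count, and those of single lists below, stand beside the 19.2% called over all genes tested, and no list is set apart by them. Among the deacetylases outside the 10 genes, all 8 were detected with a median of 15.06 TPM. Sirt2, a cytoplasmic tubulin deacetylase, led at 48.67 and 63.57 TPM, then Sirt7 at 47.23 ± 3.16 and Sirt5, a mitochondrial desuccinylase, at 28.0 ± 2.3 TPM. Of these only Sirt2 was called, higher in replicate 2. The rest of the list ran down to Hdac11 at 1.01 and 1.61 TPM.

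The scaffolds of the class I enzymes were well represented. In the Sin3 list 12 of 13 genes were detected, with a median of 54.57 TPM and 3 of the 12 tested called higher in replicate 2 (19.2% over all genes). Rbbp4 and Rbbp7, histone chaperones that Sin3 and NuRD share, had 253.3 ± 12.9 and 101.2 ± 8.97 TPM, and Sap18 had 132.2 ± 7.8. Sap30 was under the threshold at 0.29 and 0.24 TPM. In the NuRD list all 11 genes were detected with a median of 41.53 TPM, 1 called higher and 2 called lower, and Mta2 at 60.11 TPM followed the 2 chaperones. In the CoREST list 8 of 9 were detected with a median of 13.5 TPM and none called, led by Phf21a (49.2) and Zmym2 (48.89 TPM), with Rcor2 at 0.24 and 0.14 TPM.

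Ncor1, a corepressor that holds Hdac3, had 143.52 and 143.77 TPM, above Hdac3 in both libraries. All 6 genes of its list were detected with a median of 41.64 TPM and 1 called higher, and Gps2 and Cops2 followed Ncor1 at 84.31 and 59.71 TPM. In the MiDAC and MIER list the 4 genes matched by name were detected with a median of 10.71 TPM, led by Mier1 at 62.91 TPM, Mier3 at 11.27 and Mier2 at 10.16, with 1 called in each direction; Mideas was not matched by name. Of the regulators of class I all 5 were detected, Hsp90ab1 at 747.4, Csnk2b at 183.0 and Huwe1 at 50.47 TPM leading a median of 50.47, with 1 called in each direction.

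For class IIa, 20 of 23 partners were detected with a median of 22.87 TPM. Of the 22 tested, 5 were called higher and 1 lower, beside 19.2% over all genes. The 14-3-3 genes Ywhaz (538.1), Ywhae (271.0) and Ywhaq (156.9 TPM) were highest. Mef2b had 0.27 and 0.65 TPM, Mef2c 0.45 and 0.18 TPM and Prkd1 was at 0 in both libraries, so these 3 fell under the threshold. The MEF2 genes that passed were Mef2d at 20.62 and 19.0 TPM and Mef2a at 8.49 and 9.07 TPM, chosen for mention after their values were seen.

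Of the Hdac6 partners and substrates all 11 were detected with a median of 113.2 TPM. Of the 11 tested, 1 was called higher and 3 lower, beside 19.2% over all genes. Hsp90ab1 led, followed by the alpha-tubulin genes Tuba1b at 333.3 and Tuba1a at 151.3 TPM. Cttn, which encodes the actin-binding substrate cortactin, was the 1 listed partner with a called difference over 1.5 times, at 99 and 51 counts, a ratio of 0.585 and an adjusted p of 0.014 by the binomial test. Of the Sirt1 regulators and NAD genes all 9 were detected with a median of 15.71 TPM and 2 called higher, led by Cd38, an NAD-consuming enzyme, at 36.15, Parp1 at 35.52 and Ccar2, an inhibitor of Sirt1, at 24.68 TPM.

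The opposing enzymes and the readers of acetyl-lysine were expressed as well. All 10 acetyltransferases were detected with a median of 21.8 TPM, led by Crebbp at 51.85, Hat1 at 43.91 and Kat7 at 36.09 TPM, with 1 called in each direction. All 8 bromodomain genes were detected with a median of 47.55 TPM, with Brd2 at 104.1 and Brd8 at 99.33 TPM and 1 called lower.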

How the data were processed

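PolyA RNA was sequenced from 1 biological sample in 2 technical libraries of fragments of 100 to 300 bp. The authors deposited, per the labels and file headers, gene and transcript tables on mm10 and GENCODE M21 with estimated counts, TPM, FPKM, percent of the gene per transcript, and 95% credibility bounds of TPM (a signal on the TPM scale). They also deposited whole-number counts per gene on GENCODE M4. Aligner, quantifier and strand setting are not given in the sources used here. The effective length in the larger tables is 49 nt shorter than the transcript, so 50-nt windows were used to count shared sequence. Totals were 15386113 and 13604480 rounded estimated counts and 3581589 and 3271045 smaller-table counts.

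Detection required at least 1 TPM in each library. Neighbours in the order were called separated where TPM values and credibility bounds both did not overlap. Estimated counts were rounded, and each gene with at least 10 counts was tested between the libraries by a two-sided exact binomial test (SciPy 1.17.1). It used TMM library sizes (edgeR 4.0.16, R 4.3.3) and Benjamini-Hochberg adjustment at 0.05. The code was run on simulated counts with counting error only, which cannot show how the adjustment holds for these libraries. Alternatives used DESeq2 1.42.0 size factors, plain totals, no filter, edgeR with a common dispersion estimated from the 2 libraries, or the smaller table. The smaller-table CPM was divided by the length of the leading coding transcript. Promoter windows came from RefSeq. Named were all 10 genes, transcripts at 10% or more of the gene, the highest coding transcript, the 3 highest of each partner list, partners under 1 TPM and list genes called with a change over 1.5 times. The members and lists were chosen with earlier results of these data known. Some genes the naming rule selects, and sequence of genes on chromosome 18, are not reported here.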

Additional observations from a re-analysis of the deposited data

How the results depend on the processing

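The median over the 10 genes was 17.02 TPM, 16.58 to 17.45 with either library left out, 15.65 by posterior mean TPM and 13.71 by FPKM. Of the 10 genes, 9 were detected with either library left out and at 5 TPM, and 10 at 0.5 TPM or by posterior mean TPM. By posterior mean, 7 levels were lower and 3 higher, by 0.89 to 1.42 times, and 8 of 10 ranks were as before. Only 2 ranks were as before over protein-coding transcripts alone, and 1 by smaller-table CPM per kb, an alternative added after seeing the data. The 3328 genes called between the libraries were 2802 to 3374 with other scalings or no filter. They were 729 in the smaller table, which tests fewer genes with fewer counts. They were 312 by edgeR, whose common dispersion allows variation beyond counting but was estimated from the same 2 libraries that it tests. The 3 members called became 2 with DESeq2 size factors (Hdac10 had an adjusted p of 0.055) or no filter (0.07), 0 in the smaller table (1 with unadjusted p under 0.05) and 0 by edgeR (0 with unadjusted p under 0.05). The genes with 1 leading transcript were 6 to 7 with a library left out and 7 by counts, and the protein-coding share, as the mean of both libraries, was higher by counts than by TPM in all 10. Partner genes detected were 109 at 0.5 TPM and 102 at 5 TPM. No paired analysis was possible because there is 1 group, and leaving a library out leaves no library comparison. Genes under about 100 counts, such as Hdac9, have isoform values that depth does not resolve.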
